A study of Mus musculus with 8 samples.

Results

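The data hold 2589 regions of open chromatin that differed strongly between the 2 libraries of 1 group, FLK1+ cells in which the transcription factor Etv2 had been induced. They are 2589 of the 168842 regions measured. A region is a member when its log2 ratio between those libraries, taken after adding 5 to each value, was at least 1.5 in size and when the mean of the pair was at least 30 normalised reads. The measured values of the pair thus chose the members, and the difference between the pair is given as a description without a test. Replicate 2 was the higher library in 2478 members (1.47% of all regions) and replicate 1 in 111 (0.0657%). The study profiled chromatin by ATAC-seq, in which the transposase Tn5 inserts sequencing adapters into open DNA, in mouse embryoid bodies at day 4. Embryoid bodies are aggregates of differentiating embryonic stem cells, and the title asks how progenitors that carry Etv2 or FLK1 contribute to vessel, blood and heart. Each library came from 50000 sorted live cells, and there were 8 libraries in 4 groups of 2. WT DP and WT SP were wild-type cells of the A2lox.Cre line, with PDGFRalpha and FLK1 (double positive) or with FLK1 but not PDGFRalpha (single positive), and the labels give no doxycycline for them. KO DP were double-positive cells from a line in which Etv2 is knocked out. In OE SP, single-positive cells of the iETV2 line, doxycycline (2 µg/ml) had switched on Etv2 since day 2.5. Each genotype is a line of its own, and doxycycline went with the iETV2 line alone, so effects of Etv2, of the line and of the drug cannot be told apart. Whether replicate libraries stem from different cultures is not in the labels, so a p-value here measures the spread between libraries, which may be technical.

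ETV2 is a DNA-binding factor of the ETS family that starts the blood and vessel programme in early mesoderm, where it acts with GATA and TAL1 factors on genes such as Kdr, Tal1 and Runx1. FLK1, the VEGF receptor encoded by Kdr, marks mesoderm with vessel, blood and heart potential, and loss of PDGFRalpha goes with entry into the blood and vessel lineage. Regions that close in this transition include distal elements of heart and other mesoderm genes, and regions that open include elements of blood and endothelial genes. An ATAC signal is an average over the sorted cells: fewer cells with an open region and less opening per cell cannot be told apart in it.

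Few members lay at promoters, and the sequences below show those that did. In RefSeq promoter windows of 300 bases on GRCm38.p6, which has the coordinates of mm10, 58 windows of 43 genes lay under members that were higher in replicate 2, and 1 window lay under a member that was higher in replicate 1. The 250 bases before the transcription start are printed on the strand of the gene for the largest member of each kind described further on (Cacna1c, Muc13 and Cd53), for the one gene of the gene lists (Tnnt2), for a gene with an ETS match (Was) and for the only gene of the other direction (Btla). Capitals mark matches, on either strand, to 4 motifs: AGATAA for GATA factors, GGAATG for TEAD factors, TGANTCA for AP-1 and CNGGAAGT for ETS factors.
Cacna1c (chr6:119196410-119196659, minus strand): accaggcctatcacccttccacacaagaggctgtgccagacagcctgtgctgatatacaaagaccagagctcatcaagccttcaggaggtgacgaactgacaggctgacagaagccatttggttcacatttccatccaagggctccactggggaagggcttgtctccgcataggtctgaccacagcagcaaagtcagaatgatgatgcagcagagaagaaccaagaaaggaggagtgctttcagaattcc
Tnnt2 (chr1:135836084-135836333, plus strand): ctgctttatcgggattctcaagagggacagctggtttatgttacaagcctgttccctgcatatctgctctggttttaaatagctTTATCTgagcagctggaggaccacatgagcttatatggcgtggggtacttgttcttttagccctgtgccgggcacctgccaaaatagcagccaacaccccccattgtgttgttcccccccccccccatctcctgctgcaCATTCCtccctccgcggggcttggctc
Muc13 (chr16:33794239-33794488, plus strand): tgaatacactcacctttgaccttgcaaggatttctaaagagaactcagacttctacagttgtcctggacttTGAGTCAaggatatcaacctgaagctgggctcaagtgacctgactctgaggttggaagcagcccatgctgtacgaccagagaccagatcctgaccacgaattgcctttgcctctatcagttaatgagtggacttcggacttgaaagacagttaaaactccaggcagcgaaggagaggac
Cd53 (chr3:106790150-106790399, minus strand): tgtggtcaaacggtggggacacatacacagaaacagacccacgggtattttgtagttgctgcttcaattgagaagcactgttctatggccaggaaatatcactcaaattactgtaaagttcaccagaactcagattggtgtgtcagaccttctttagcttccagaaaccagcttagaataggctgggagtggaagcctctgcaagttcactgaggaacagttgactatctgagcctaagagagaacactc
Was (chrX:8090492-8090741, minus strand): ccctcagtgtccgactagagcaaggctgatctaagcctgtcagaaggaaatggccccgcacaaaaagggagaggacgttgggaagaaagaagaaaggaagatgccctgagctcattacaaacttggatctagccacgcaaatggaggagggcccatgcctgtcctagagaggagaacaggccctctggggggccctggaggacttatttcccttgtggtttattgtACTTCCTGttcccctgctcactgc
Btla (chr16:45224087-45224336, plus strand): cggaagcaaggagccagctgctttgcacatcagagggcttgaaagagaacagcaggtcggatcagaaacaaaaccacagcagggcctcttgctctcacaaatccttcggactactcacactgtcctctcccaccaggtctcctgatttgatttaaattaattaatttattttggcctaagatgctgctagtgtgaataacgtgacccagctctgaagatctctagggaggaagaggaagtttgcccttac
Cacna1c encodes a heart calcium channel subunit and its window held none of the 4 motifs. Tnnt2 encodes cardiac troponin T and held 1 GATA and 1 TEAD match. Muc13, a membrane mucin gene, held an AP-1 match. Cd53, a tetraspanin gene of blood cells, held none, and Was, the Wiskott-Aldrich syndrome gene active in blood cells, held 1 ETS match. Btla, a lymphocyte receptor gene, held none in these 250 bases.

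Across the whole 300-base windows, the GATA motif stood in 27.6% of the 58 windows under members higher in replicate 2, against 6.13% of 11633 windows under regions that met the same minimum of 30 and 11.2% of all 32817 promoters. The ETS motif stood in 3.45%, against 13.9% and 9.53%. The GC box GGGCGG, bound by SP and KLF factors, stood in 8.62%, against 65.9% and 35.6%, and the median GC content was 50.0% against 61.7% and 52.7%. The members at promoters thus lay mostly at windows without GC boxes. A match describes the letters alone, and several windows can belong to 1 gene.

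Their values put these promoters on different sides of the wild-type level. At the Tnnt2 promoter the value was 97.1 and 96.1 normalised reads in WT DP, 158 and 178 in KO DP, 173 and 174 in WT SP, 12.4 in OE SP replicate 1 and 63.1 in replicate 2. Both OE SP libraries lay below all 6 others. At the Cd53 promoter it was 1.94 and 6.29 in WT DP, 5.88 and 0 in KO DP, 3.05 and 6.94 in WT SP, 19.7 in OE SP replicate 1 and 74.9 in replicate 2. Both OE SP libraries lay above all 6 others, so Tnnt2 and Cd53 differed between the pair in the same direction from opposite sides. At the Btla promoter replicate 1 had 59.8 and replicate 2 had 17.1, and the others lay between 6.11 and 26.9.

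The difference between the OE SP libraries has no counterpart in the other pairs. The same rule applied to the pairs of WT DP, WT SP and KO DP found 0 regions in each, among 94760 to 96808 regions with a mean of at least 30. The largest log2 ratio in size was 1.35 for WT DP, 1.28 for WT SP and 1.42 for KO DP, against 4.24 for OE SP. The SD of the log2 ratio over those regions was 0.234, 0.243 and 0.253, against 0.537 for OE SP. The members themselves were steady in those pairs: at the 2478 members higher in OE SP replicate 2 the log2 ratio reached a size of 1 in 3 regions for WT DP, 1 for WT SP and 10 for KO DP. Reads in regions differed in the OE SP pair, with 18818425 for replicate 1 and 13124581 for replicate 2. They differed by about as much in the KO DP pair, with 18853733 and 12477601. The deposited scaling was less alike. A read counted as 0.729 and 1.31 normalised reads in OE SP replicates 1 and 2, and as 0.840 and 1.19 in KO DP. The deposited scaling left the OE SP pair unequal in total, with replicate 2 at 1.26 times the normalised total of replicate 1 and a median log2 ratio over all regions of 0.20. The ratio of each member includes this general shift. Under other scalings fewer members were higher in replicate 2 and more in replicate 1: 1807 and 284 with median-of-ratios factors, where the median log2 ratio of all regions was 0.04, 1303 and 327 with quantile normalization, where it was -0.03, and 1081 and 501 with factors from the 10000 highest regions, where it was -0.12. Replicate 2 was the higher library in 95.7% of members as deposited and in 86.4%, 79.9% and 68.3% under these scalings. The 3 scalings all lowered replicate 2 against replicate 1 in the median, a shift that favours keeping members higher in replicate 1. All 111 of those were kept. Of the 2478 members higher in replicate 2, 1756, 1290 and 1081 were kept.

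**Figure D1:**
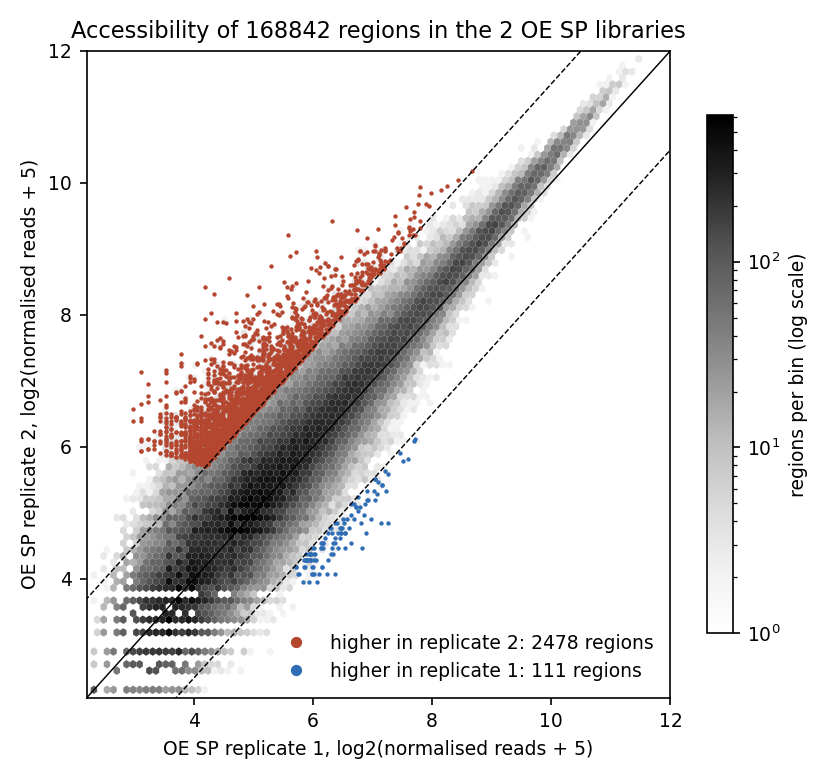
Both axes give log2(normalised reads + 5) in the OE SP libraries, replicate 1 across and replicate 2 up; grey bins count all 168842 regions on a log scale, the solid line marks equality and the dashed lines a log2 ratio of 1.5. The 2478 members higher in replicate 2 (red) reach a log2 ratio of 4.24 and the 111 higher in replicate 1 (blue) reach -2.41.

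The label of the cells was checked on the gene that was manipulated and on the sort markers. Summed over the 3 regions of Etv2, the WT DP libraries had 820.3 and 819, the WT SP libraries 714 and 729.6, the KO DP libraries 201 and 193, and OE SP replicates 1 and 2 had 660.2 and 999. The KO DP libraries were lowest, as their label says, and the transgene itself was not measured here. Over 43 regions of Kdr the WT DP libraries summed to 3715 and 3849, the WT SP libraries to 3637 and 3677, the KO DP libraries to 4295 and 4279.7, and OE SP to 3990.2 and 5417. Over 28 regions of Pdgfra, whose product the SP sort excludes, WT DP had 2179 and 2327, WT SP 1704 and 1604, KO DP 2369 and 2145, and OE SP 1244 and 1587. Both OE SP libraries carried open Kdr chromatin and the lowest Pdgfra sums, though replicate 2 (1587) was only just below WT SP replicate 2 (1604). Replicate 2 lay above replicate 1 at both genes, and over all regions its normalised total was also higher, by 1.26 times.

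Most members higher in replicate 2 were regions that were open in wild-type cells and lower in both OE SP libraries, and far lower in replicate 1. Over the 2478 members the median value was 117 and 116 normalised reads in WT DP, 140.2 and 146 in KO DP, 182 and 184 in WT SP, 22.6 in OE SP replicate 1 and 99.9 in OE SP replicate 2. Replicate 1 stood at a median of 13.3% of the WT SP mean and replicate 2 at 56.8%. Sorted by side of the WT SP mean, both OE SP libraries lay below it at 1824 members (73.6%), replicate 1 below and replicate 2 above it at 500 (20.2%), and both above it at 154 (6.21%). In the first kind the medians were 241 and 249 in WT SP, 21.2 in OE SP replicate 1 and 95.9 in replicate 2. In the second kind they were 65.6 and 64.4 in WT SP, 26.3 in OE SP replicate 1 and 106 in replicate 2. In the third kind they were 19.3 and 17.8 in WT SP, 32.1 in OE SP replicate 1 and 118 in replicate 2. The kinds are defined by the place of WT SP around the pair, so the order of the WT SP medians follows from the sorting. With median-of-ratios factors the 3 kinds, among the regions that met the rule as deposited, held 1739, 536 and 203.

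**Figure D2:**
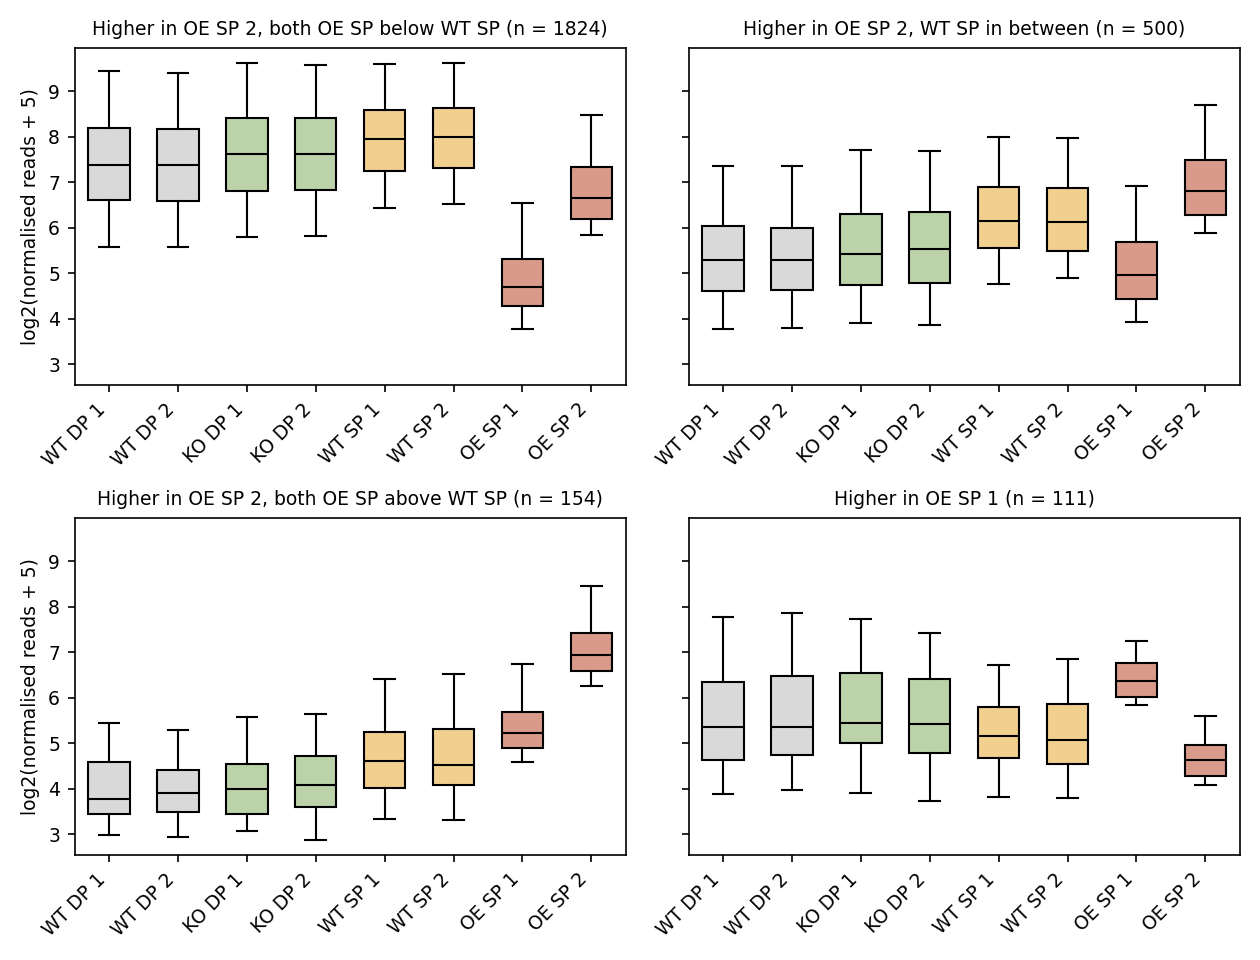
Each panel gives log2(normalised reads + 5) in the 8 libraries for 1 kind of member; boxes span the quartiles, the line is the median and the whiskers run from the 5th to the 95th percentile of regions. Replicate 1 of OE SP is the lowest library in the panel of 1824 members, and replicate 2 is the highest in the panels of 500 and 154.

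A pair of values cannot say which of them is the discordant one, so both libraries were placed against the wild-type groups. A library was called near the closer of WT DP and WT SP when its log2 value lay within 1 of that group's mean, near both when the means of these groups lay within 0.5 of each other, and otherwise near neither. At the members higher in replicate 2, replicate 1 was near neither group in 1860 (75.1%), near WT DP in 354 (14.3%), near WT SP in 159 (6.42%) and near both in 105 (4.24%). Replicate 2 was near neither in 849 (34.3%), near WT DP in 705 (28.5%), near WT SP in 484 (19.5%) and near both in 440 (17.8%). Replicate 1 was the library farther from the mean of the other 6 in 2003 members (80.8%), and replicate 2 in 475 (19.2%). The commonest pair of classes was replicate 1 near neither with replicate 2 near WT DP, at 698 members, and at 593 members neither library was near a wild-type group. At 304 members replicate 1 was near WT DP while replicate 2 was near WT SP, and the reverse occurred at 1. Replicate 2 is the higher library here by the rule, so the first pattern needs WT SP above WT DP and the reverse needs it below. In the fit described further on, 1722 of these members were more open in WT SP than in WT DP and 135 less open. The 2 counts thus follow in part from the rule and the wild-type difference. These classes depend on the width: within 0.5, replicate 1 was near neither group in 2143 and replicate 2 in 1450, and within 1.5 in 1567 and 443.

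The largest differences were at regions that were strongly open in all 6 other libraries. The largest among members with a gene lay inside Abca4, a lipid transporter gene (chr3:122133299-122133699). It measured 269 and 288 in WT DP, 254 and 232 in KO DP, 433 and 484 in WT SP, 3.65 in OE SP replicate 1 and 135 in replicate 2. These were 5 and 103 reads as counted, and replicate 1 kept 0.796% of the WT SP mean while replicate 2 kept 29.5%. The member at the end of Mipep, which encodes a mitochondrial peptidase (chr14:60904543-60904943), measured 1086 and 974 in WT DP, 1215 and 1249 in KO DP, 1139 and 1229 in WT SP, 15.3 in OE SP replicate 1 and 315 in replicate 2. The member 11.1 kb from Crabp1, a retinoic acid binding protein gene (chr9:54783985-54784385), measured 818 and 775 in WT DP, 861 and 784 in KO DP, 1009 and 1039.9 in WT SP, 19.0 in OE SP replicate 1 and 371 in replicate 2. At all 3, both OE SP libraries lay below the 6 others, with replicate 1 lower by a further 16.2, 15.8 and 15.7 times on the scale of value plus 5. The next members by size, near Blk, inside Cttnbp2 and near Chit1, had log2 ratios of 3.75, 3.74 and 3.72. At these too both OE SP libraries lay below the 6 others, with replicate 1 the lower.

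Replicate 1 stood close to 0 at regions where replicate 2 did not. Of 20526 regions with a WT SP mean of at least 200, 334 held at most 5% of that mean in replicate 1, a set chosen without replicate 2. At those 334 the median was 3.65% in replicate 1 and 23.1% in replicate 2, with quartiles of 17.2% and 29.8%, and 97.0% of them held over 10% in replicate 2. The converse set, at most 5% in replicate 2, was 1 region, which held 5.21% in replicate 1. At a limit of 10% the sets were 1049 and 22 regions. Regions that were nearly shut in replicate 1 thus kept part of the wild-type signal in replicate 2. Choosing on the lowest values of 1 library by itself leaves the other library higher there. Of the 334, 258 (77.2%) were members, against 1.53% of all regions, and low values in replicate 1 helped to choose both. With median-of-ratios factors the first set was 193 regions with a median of 25.7% in replicate 2, and the converse set was 0. This set and its limits were chosen after the data had been seen.

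The pair was also set side by side in steps along the range. In bins of the log2 difference between replicate 1 and the WT SP mean, over regions with a WT SP mean of at least 100, replicate 1 ran from a median of -1.45 through -2.46 and -3.36 to -4.30. Replicate 2 in the same regions ran from -0.85 through -1.50 and -1.89 to -2.05, with smaller steps at the low end. Binned on replicate 2 in place of replicate 1, replicate 1 ran from a median of -2.26 through -3.03 to -3.33 while replicate 2 ran from -1.43 through -2.28 to -3.14, so the library not used for binning flattened either way. Of the regions in the lowest bin of replicate 1, 260 of 367 (70.8%) were members, against 1.53% of all regions. Replicate 1 helped to choose both. Both axes share the WT SP mean, and binning on 1 library pulls its own extremes outward, which is why both directions are given.

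**Figure D3:**
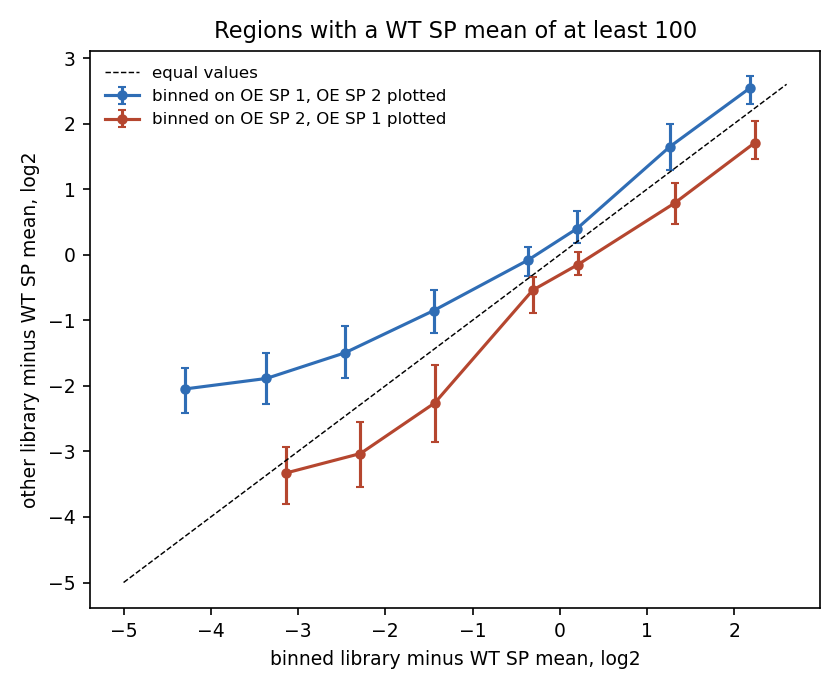
The x axis is the log2 difference between the library used for binning and the WT SP mean, the y axis the same difference for the other OE SP library, over regions with a WT SP mean of at least 100. Points are bin medians with quartile bars; the blue line flattens near -2 while replicate 1 falls to -4.30, and the red line stays near or below the dashed line of equal values.

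Regions far more open in OE SP than in WT SP were compared as well. Those with at least 100 normalised reads in replicate 1 and a WT SP mean of at most 10% of that numbered 259, and replicate 2 held a median of 98.7% of the value of replicate 1 there. The set chosen in the same way on replicate 2 numbered 596, and replicate 1 held a median of 66.0%. Members were 1 of the first set (0.386%) and 18 of the second (3.02%), against 2.85% of all regions with an OE SP mean of at least 30.

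At the 500 members with the WT SP level in between, replicate 2 was more open than WT SP and replicate 1 less open. In the gene lists described further on, 10 of the 21 members at hematopoietic genes and 1 of the 7 at endothelial genes were of this kind. Over all members higher in replicate 2 the share was 20.2%. The examples below do not stand for the 500 as a whole. Inside Runx1, the master factor of definitive blood formation (chr16:92822272-92822672), the value was 61.2 and 78.1 in WT DP, 84.8 and 84.4 in KO DP, 198 and 188 in WT SP, 55.4 in OE SP replicate 1 and 360.0 in replicate 2. Replicate 1 lay below the 6 libraries of the other groups, at 28.7% of the WT SP mean, and replicate 2 above them, at 186%. Inside Eng, the TGF-beta co-receptor endoglin of endothelium (chr2:32661740-32662140), it was 167 and 137 in WT DP, 155 and 155 in KO DP, 242 and 241 in WT SP, 135 in OE SP replicate 1 and 426 in replicate 2. Inside Bcar1, an adhesion scaffold gene (chr8:111726138-111726538), it was 339.8 and 340.4 in WT DP, 503 and 567 in KO DP, 953 and 932 in WT SP, 402 in OE SP replicate 1 and 1151 in replicate 2. At Eng and Bcar1, replicate 1 was classed near WT DP and replicate 2 near WT SP. Members of this kind also lay inside Gata1, with 19.7 in replicate 1 and 82.8 in replicate 2 against 30.5 and 37.7 in WT SP, and near Gfi1b, with 97.7 and 426 against 398 and 357, both genes of blood cell factors.

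The 154 members at which both OE SP libraries exceeded WT SP mostly had low values in wild type. Inside Notch1, the receptor of arterial specification (chr2:26483229-26483629), the value was 44.7 and 32.3 in WT DP, 33.6 and 36.8 in KO DP, 56.0 and 48.6 in WT SP, 101 in OE SP replicate 1 and 352 in replicate 2. At Pecam1, the endothelial adhesion gene, the member at the gene end had 34.0 and 29.6 in WT DP, 52.1 and 60.6 in KO DP, 105 and 112 in WT SP, 120.4 in OE SP replicate 1 and 416 in replicate 2. Inside Ikzf1, the lymphoid factor Ikaros, 1 member had 3.88 and 11.7 in WT DP, 14.3 and 14.3 in KO DP, 29.5 and 29.7 in WT SP, 39.4 in OE SP replicate 1 and 192 in replicate 2. At these examples replicate 1 lay closer to WT SP than to replicate 2.

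The 111 members higher in replicate 1 were fewer and had lower median values in wild type than those higher in replicate 2. Their median was 35.9 and 35.9 in WT DP, 38.6 and 38.0 in KO DP, 30.5 and 28.7 in WT SP, 77.3 in OE SP replicate 1 and 19.7 in replicate 2. Replicate 1 lay above and replicate 2 below the WT SP mean at 74, both lay above at 28 and both below at 9. Replicate 1 was near neither wild-type group in 46, near WT DP in 26, near both in 21 and near WT SP in 18, and replicate 2 was near both in 43, near WT SP in 31, near neither in 28 and near WT DP in 9. At 24 of the 26 members where replicate 1 was near WT DP, replicate 2 was near WT SP. With replicate 1 the higher library by the rule, that pattern needs WT SP below WT DP. Replicate 1 was the farther library in 68 and replicate 2 in 43.

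The largest of them lay near Lefty1, an inhibitor of Nodal signalling (chr1:180924773-180925173), and measured 149 and 172 in WT DP, 133 and 121 in KO DP, 85.5 and 93.2 in WT SP, 147 in OE SP replicate 1 and 23.6 in replicate 2. Replicate 1 stood with the DP libraries there and replicate 2 below all other libraries. Inside Tet3, a DNA demethylation enzyme gene (chr6:83421702-83422102), the value was 411 and 457 in WT DP, 347 and 294 in KO DP, 191 and 203 in WT SP, 203 in OE SP replicate 1 and 63.1 in replicate 2. Inside Fgfr2, an FGF receptor gene (chr7:130252142-130252542), it was 226 and 244 in WT DP, 196 and 197 in KO DP, 48.9 and 59.5 in WT SP, 59.1 in OE SP replicate 1 and 13.1 in replicate 2. At Tet3 and Fgfr2 replicate 1 lay at the level of WT SP and replicate 2 well under it. Inside Epp13 (chr7:6258881-6259281) it was 17.5 and 19.8 in WT DP, 26.9 and 33.3 in KO DP, 12.2 and 17.8 in WT SP, 108 in OE SP replicate 1 and 17.1 in replicate 2, so there replicate 1 alone stood out and replicate 2 lay among the other 6. Other members with large ratios, near Gm28710, inside Astn2, near Plxdc2 and inside Vps13d, had log2 ratios of -2.30, -2.29, -2.19 and -2.16 with 9 to 18 reads in replicate 2.

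The threshold cuts through a continuous range. Just inside it lay members at Abhd2, Slc2a9 and Atg7, with 81.7 and 240.4, 66.4 and 197, and 40.9 and 125 in OE SP replicates 1 and 2. Just outside lay regions at Accsl, Sec14l2 and Klf4, with 27.0 and 85.4, 32.1 and 99.9, and 47.4 and 143. In the other direction Kctd3 lay just inside, with 94.8 and 30.2, and Ndufs4 just outside, with 198 and 67.0. At a log2 ratio of at least 1 the rule takes 7655 regions higher in replicate 2 and 822 higher in replicate 1, and at a ratio of at least 2 it takes 795 and 11. As a description of the values that the rule chose, the 95% counting interval of the ratio stayed beyond a log2 size of 1 in 98.8% of the members higher in replicate 2 and in 82.9% of those higher in replicate 1, with 4 reads or more in the lower library. Reads carried no molecular identifiers, so these intervals cover counting error only.

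The wild-type and knockout libraries took no part in the choice of members and allow a test. In a limma fit of those 6 libraries over 159075 regions, 1722 of the 2426 tested members higher in replicate 2 (71.0%) were more open in WT SP than in WT DP at an adjusted p below 0.05, against 21.4% of all regions tested. Members lay at higher values than most regions: among regions with an OE SP mean of at least 30 the share was 30.5%, and where the 6 libraries averaged 100 or more it was 38.1%, against 68.6% of the members so chosen. Less open in WT SP were 135 members (5.56%), against 16.4% of all regions and 7.46% of those with an OE SP mean of at least 30. The median log2 difference was 0.63 for members and 0.09 for all regions. At 2-fold or more, 597 members (24.6%) were higher in WT SP and 5 were lower, against 4.56% and 6.05% of all regions. Of the 110 tested members higher in replicate 1, 45 (40.9%) were less open in WT SP than in WT DP and 7 (6.36%) were more open, with a median log2 difference of -0.42. Most members higher in replicate 2 were thus more open in WT SP than in WT DP, and the members higher in replicate 1 that passed the test were mostly less open. Another scaling moved the background and the members alike: with factors from the 10000 highest regions 10.3% of all regions were higher and 22.5% lower, against 56.5% and 10.8% of members higher in replicate 2, and the medians were -0.09 and 0.43. For the members higher in replicate 1 that scaling gave 1 higher and 56 lower. In a fit of all 8 libraries, 197 members higher in replicate 2 (7.95%) were more open in WT SP, against 6.20% of all regions. Less open were 3 (0.121%), against 8.12%. The members were chosen for a wide OE SP spread, which enters their error in that fit. It thus loses their calls by the rule and cannot say whether the excess holds. The medians of 0.63 and 0.11 stayed apart.

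**Figure D4:**
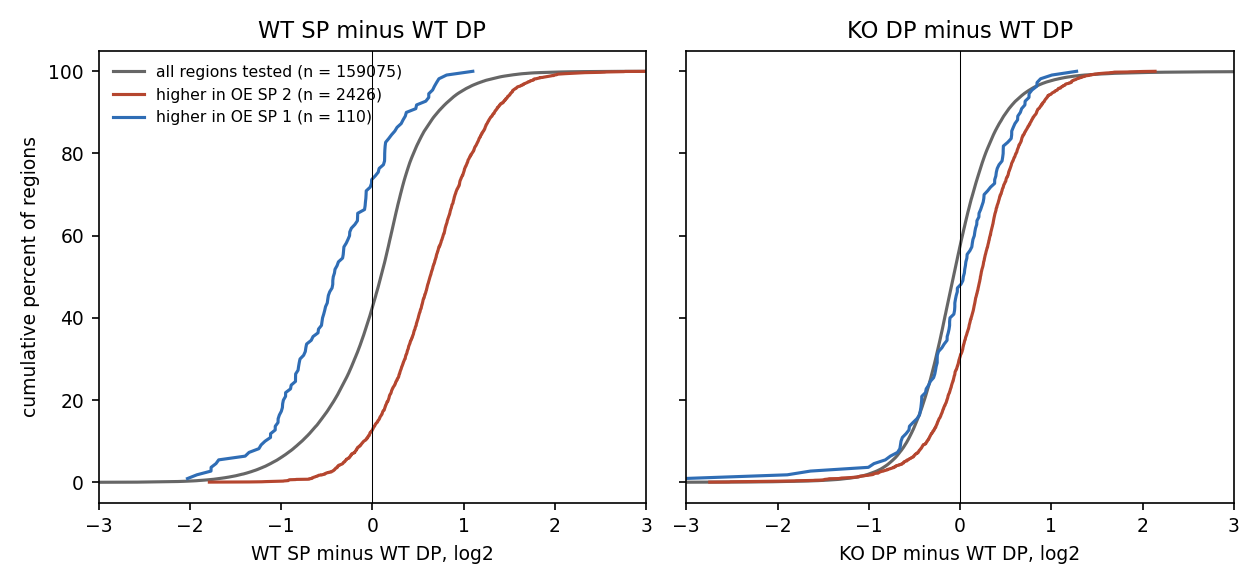
Cumulative percent of regions against the log2 difference between WT SP and WT DP (left) and between KO DP and WT DP (right), means of 2 libraries each, on the log2(normalised reads + 5) scale. On the left the members higher in OE SP replicate 2 (red, median 0.63) lie to the right of all regions tested (grey, median 0.09), and the members higher in replicate 1 (blue, median -0.42) lie to the left.

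Single members show both ends of that range, with limma's SE and its p adjusted over all regions tested. The member 56.9 kb from Ier5 (chr1:155039260-155039660) measured 19.4 and 24.3 in WT DP, 54.6 and 66.6 in KO DP, 195 and 161 in WT SP, 81.0 in OE SP replicate 1 and 332 in replicate 2. WT SP exceeded WT DP by 2.77 (log2, SE 0.18, adjusted p = 1.16e-27), and no WT SP library overlapped a DP library. The member 34.2 kb from Rbpms, an RNA-binding protein gene (chr8:33963963-33964363), measured 209 and 205 in WT DP, 484 and 536 in KO DP, 585 and 619 in WT SP, 21.2 in OE SP replicate 1 and 234 in replicate 2, with a difference of 1.52 (log2, SE 0.10, adjusted p = 9.62e-27). Of the members higher in replicate 2, the one with the lowest adjusted p the other way lay inside Gabbr2, a GABA receptor gene (chr4:46825061-46825461), with 450.4 and 451 in WT DP, 374 and 347 in KO DP, 129 and 125 in WT SP, 19.0 in OE SP replicate 1 and 68.3 in replicate 2 and a difference of -1.79 (log2, SE 0.11, adjusted p = 2.33e-29). Rbpms and Gabbr2 differed in opposite directions between the wild-type groups, and both had their lowest value in OE SP replicate 1. Among the members higher in replicate 1, WT SP was below WT DP inside Csmd1 (chr8:16314517-16314917), by -1.77 (log2, SE 0.10, adjusted p = 6.52e-33), and inside Fgfr2, by -2.03 (log2, SE 0.13, adjusted p = 8.81e-27). At Mipep and Blk the call was marginal, with 0.20 (log2, SE 0.08, adjusted p = 0.0482) and 0.24 (log2, SE 0.08, adjusted p = 0.0141), and it was lost under other scalings and tools. Of the 51 regions named by rule that passed for WT SP against WT DP, 39 no longer did in the fit of all 8 libraries, Rbpms, Ryr2, Tnni1 and the Runx1 and Kdr regions described further on among them, while Ier5, Gabbr2, Csmd1 and Fgfr2 still passed.

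The Etv2 knockout was compared at the same members with the same WT DP libraries, so the 2 comparisons share them and are given side by side. More open in KO DP than in WT DP were 931 members higher in replicate 2 (38.4%), against 9.27% of all regions, 8.17% of those with an OE SP mean of at least 30 and 12.3% of those where the 6 libraries averaged 100 or more. Less open were 226 (9.32%), against 14.1%, 17.2% and 25.9%. Of the 1601 such members where the 6 libraries averaged 100 or more, 718 (44.8%) were more open and 157 (9.81%) less open. The median log2 difference was 0.22 for all tested members higher in replicate 2 and -0.07 for all regions. Of the members higher in replicate 1, 18 were more open in KO DP and 16 less open among 110, with a median of 0.04. Leaving out 1 library at a time left 7 to 9 and 7 to 13 of these, so both counts fell whichever library was left out. Inside Dcakd (chr11:102998523-102998923) the value was 282 and 239 in WT DP, 597 and 633 in KO DP, 749 and 695 in WT SP, 193 in OE SP replicate 1 and 698 in replicate 2, so that KO DP exceeded WT DP by 1.23 (log2, SE 0.10, adjusted p = 4.89e-21) and WT SP did so by 1.46 (log2, SE 0.10, adjusted p = 1.91e-26). Inside Sergef (chr7:46482033-46482433) KO DP was below WT DP, at 113 and 128 against 386 and 357, a difference of -1.59 (log2, SE 0.11, adjusted p = 1.63e-25). In the fit of all 8 libraries 6 members higher in replicate 2 (0.242%) were more open in KO DP, against 1.72% of all regions, and Sergef alone of the 34 regions named by rule still passed.

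Blood and heart genes held the largest shares of members among 10 gene lists. Of 307 regions at 24 hematopoietic genes 21 were higher in replicate 2 (6.84%), of 431 regions at 26 cardiac genes 18 (4.18%), and of 626 regions at 34 endothelial genes 7 (1.12%), against 1.47% of all regions. The AP-1 list had 3 of 110, the paraxial and streak mesoderm list 6 of 285, the endoderm list 4 of 236, the smooth muscle and mesenchyme list 3 of 223, the pluripotency list 2 of 204, the neuroectoderm list 1 of 266 and the housekeeping list 0 of 113. No member higher in replicate 1 was assigned to a gene of any list, where all regions had 0.0657%. The median log2 ratio over all regions of a list was 0.42 for hematopoietic, 0.31 for cardiac, 0.30 for endothelial and 0.31 for housekeeping genes, against 0.20 for all regions, and over the 10 lists it ran from 0.05 for neuroectoderm to the 0.42 of hematopoietic genes. The members were chosen on this ratio, so these shares carry no test.

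**Figure D5:**
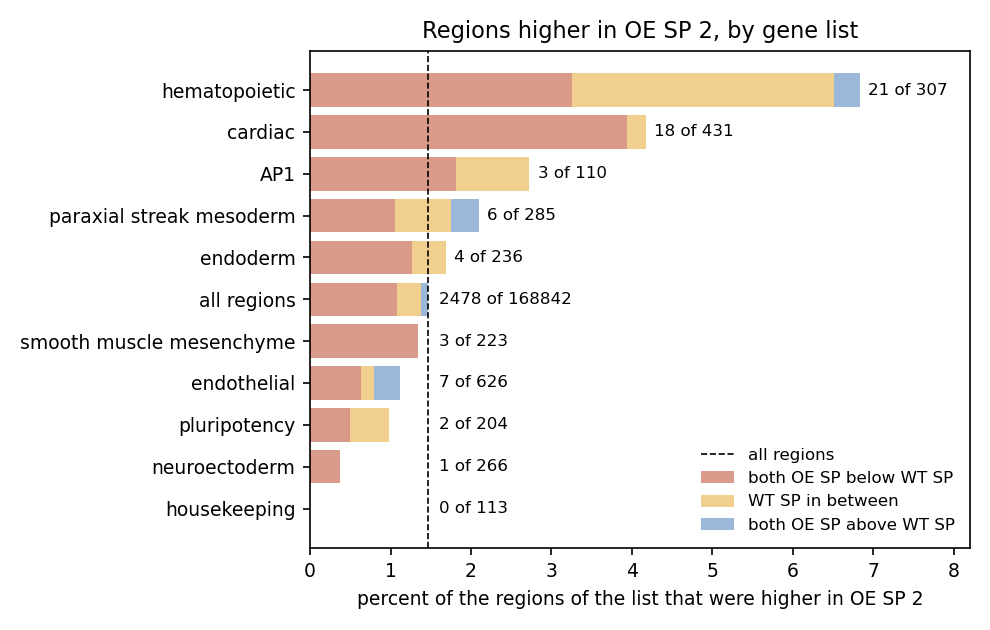
Bars give the percent of a list's regions that were higher in OE SP replicate 2, split by the side of the WT SP mean on which the pair lay, with the counts beside them; the dashed line marks 1.47%, the share of all regions. Hematopoietic genes reach 6.84% with 11 of 21 members above WT SP in replicate 2, and cardiac genes 4.18% with 17 of 18 below WT SP in both libraries. Over all members higher in replicate 2 those shares are 26.4% and 73.6%.

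The cardiac members were mostly regions less open in both OE SP libraries than in WT SP, as were 73.6% of all members higher in replicate 2. Replicate 1 was the lower of the pair by the rule. Both OE SP libraries were below WT SP at 17 of the 18 and on either side of it at 1, near Hand1, with 21.9 and 78.8 in OE SP replicates 1 and 2. The 18 lay at Hand1 and Ryr2 with 3 each, Tnni1 and Wnt11 with 2 each, and Actc1, Gata4, Gata5, Isl1, Myl7, Smarcd3, Tbx20 and Tnnt2 with 1 each. Inside Tnni1, a troponin gene of embryonic heart (chr1:135800476-135800876), the value was 850.4 and 824 in WT DP, 969.8 and 834 in KO DP, 1078 and 1062 in WT SP, 24.8 in OE SP replicate 1 and 309 in replicate 2. Inside Ryr2, the calcium release channel of heart muscle (chr13:12030518-12030918), it was 263 and 248 in WT DP, 339 and 335 in KO DP, 623 and 619 in WT SP, 16.8 in OE SP replicate 1 and 177 in replicate 2. At both, replicate 1 was the lowest of the 8 libraries and replicate 2 the second lowest. WT SP exceeded WT DP at Ryr2 by 1.26 (log2, SE 0.10, adjusted p = 4.19e-21) and at Tnni1 by 0.35 (log2, SE 0.09, adjusted p = 0.00056), and the call at Tnni1 was lost with quantile normalization. The members at the cardiac factor genes Gata5 and Tbx20 had 19.0 and 127, and 70.8 and 288, in OE SP replicates 1 and 2, against 991 and 939.8, and 589 and 621, in WT SP. One member at the end of Hand1, a factor of heart and extraembryonic mesoderm, had 84.6 and 381 against 643 and 646.

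The hematopoietic members were split between regions below WT SP in both OE SP libraries, 10 of 21, and regions that replicate 2 held above WT SP, 11 of 21. Over all members higher in replicate 2 those shares were 73.6% and 26.4%. The hematopoietic members lay at Runx1 (5), Cbfa2t3 and Zfpm1 (4 each), Ikzf1 and Lmo2 (2 each), and Gata1, Gfi1b, Kit and Nfe2 (1 each). Within Runx1 alone both kinds occurred. The member at chr16:92778131-92778531 measured 585 and 600.0 in WT DP, 558 and 521 in KO DP, 761 and 819 in WT SP, 19.0 in OE SP replicate 1 and 149.8 in replicate 2, and that at chr16:92784886-92785286 measured 120.4 and 133 in WT DP, 175 and 212 in KO DP, 231 and 220.1 in WT SP, 9.48 in OE SP replicate 1 and 68.3 in replicate 2. Both OE SP libraries lay below all 6 others at these, unlike at the third Runx1 region, described above, where replicate 2 exceeded them. WT SP exceeded WT DP at the 3 Runx1 regions by 0.41 (log2, SE 0.09, adjusted p = 0.000138), 0.81 (log2, SE 0.12, adjusted p = 3.5e-08) and 1.42 (log2, SE 0.15, adjusted p = 7.63e-15). At Zfpm1, the GATA cofactor FOG1, the member with the largest ratio had 214 in replicate 1 and 895 in replicate 2 against 1375 and 1364 in WT SP. At Kit, the stem cell factor receptor, it was 52.5 and 173 against 86.5 and 85.3.

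Endothelial genes, which ETV2 is known to activate, had 7 members in 626 regions (1.12%), near the 1.47% of all regions. Both OE SP libraries lay below WT SP at 4, on either side of it at 1 and above it at 2. Over all members higher in replicate 2 those shares were 73.6%, 20.2% and 6.21%. The 7 lay at Kdr and Nrp2 (2 each), Eng, Notch1 and Pecam1. The member 29.6 kb from Kdr (chr5:76008431-76008831) measured 698 and 714 in WT DP, 844 and 901 in KO DP, 524 and 544 in WT SP, 43.0 in OE SP replicate 1 and 201 in replicate 2, below all 6 other libraries in both OE SP libraries, and WT SP was below WT DP there, by -0.40 (log2, SE 0.09, adjusted p = 0.000163). The member near Nrp2, a VEGF co-receptor gene (chr1:62860857-62861257), measured 112 and 114 in WT DP, 83.1 and 82.0 in KO DP, 92.6 and 99.1 in WT SP, 11.7 in OE SP replicate 1 and 57.8 in replicate 2. Of 43 regions at Kdr the median log2 ratio was 0.37, so most of the locus did not differ by the rule.

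Members higher in replicate 2 had another such member close by more often than all regions did. Of these, 342 (13.8%) had another within 10 kb, against 3.70% of all regions that had one, and 1179 (47.6%) against 26.4% within 100 kb. Of the 111 members higher in replicate 1, 0 had another within 10 kb, against 0.0823% of all regions that had one. Within 100 kb 2 (1.80%) had another, against 0.923%, so these counts are too small to compare. All members were 401 bp wide, as were 168597 of all 168842 regions. By position 62 (2.50%) were gene-end regions, no more than 1 kb from either end of a gene, compared with 10.5% of all regions and 17.2% of regions with a mean of at least 30, while 1172 (47.3%) lay inside a gene, against 46.3% of all regions, and 326 (13.2%) over 100 kb from any protein-coding gene, against 10.7%. On the 20 chromosomes other than Y, which held 0 of 43 regions, the share ran from 1.16% to 1.98%, the highest being chromosome 8 and the lowest chromosome 10. In all 1604 genes had such a member, and 1235 of them had 1.

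The densest group held 13 members among 49 regions within 100 kb on chromosome 8, between Irf8, a factor gene of myeloid cells, and Foxf1, a factor gene of lateral plate mesoderm. The members spanned chr8:120817958-120947729, 61.3 kb from the end of Irf8 and 137 kb from Foxf1. Their medians were 251 and 274 in WT DP, 345 and 348 in KO DP, 342 and 383 in WT SP, 16.0 in OE SP replicate 1 and 97.2 in replicate 2. All 13 lay below WT SP in both OE SP libraries, with log2 ratios of up to 3.50, while the other 36 regions had a median log2 ratio of 0.51. Between the wild-type groups, 8 of the 13 were more open in WT SP and 2 less open in the limma fit, against 21.4% and 16.4% of all regions tested. Among all tested members higher in replicate 2 the shares were 71.0% and 5.56%. One of the 2 with most members around it (chr8:120887820-120888220) measured 611 and 587 in WT DP, 961 and 872 in KO DP, 441 and 489.7 in WT SP, 15.3 in OE SP replicate 1 and 131 in replicate 2. WT SP was below WT DP there, by -0.36 (log2, SE 0.09, adjusted p = 0.000838). That call was lost without WT SP replicate 1 and in the fit of all 8 libraries.

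Smad6, an inhibitor of BMP signalling, had the most members of any gene, 8 of 52 regions, and was picked for that number after the values had been seen. All 8 lay below WT SP in both OE SP libraries. The one with the largest ratio (chr9:63932774-63933174) measured 272 and 308 in WT DP, 179.7 and 195 in KO DP, 566 and 575 in WT SP, 24.8 in OE SP replicate 1 and 158 in replicate 2. Across the 8, WT SP ranged from 87.2 to 648, OE SP replicate 1 from 12.4 to 104 and replicate 2 from 51.2 to 455. Tle3 and Tenm4 had 7 members each, and Tbx3, a factor of cardiac and limb mesoderm, had 6, at which WT SP ranged from 95.2 to 1172, replicate 1 from 13.9 to 61.3 and replicate 2 from 64.4 to 403.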

How the data were processed

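ATAC-seq was measured in 8 libraries, 2 in each of WT DP, WT SP, KO DP and OE SP, grouped by the labels. The authors' deposited table gives a signal per region, normalised reads, for 168842 regions of mouse build mm10. Bowtie2, MACS2 and DiffBind 3.14.1 were used, per the submitters' processing notes, without a statement of what each did. How the libraries were scaled, how peaks were called and whether replicates were pooled for it, and how duplicates and the Tn5 offset were treated are steps not given in the sources used here, and the scaling bears directly on the number and direction of the members. Every value (100%) was a whole multiple of its library's step at a tolerance of 0.01 reads, so reads were recovered, 12477601 to 18853733 per library, and were used for counting intervals, edgeR and DESeq2.

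From these values the members were found by the stated rule and described, with no test of the OE SP pair. The members, gene lists and tests were chosen with earlier results of these data known. Tests used limma 3.58.1 (R 4.3.3) with an empirical Bayes trend, on log2(value + 5), over 159075 regions whose mean reached 10 in the 6 libraries of WT DP, WT SP and KO DP, in 1 fit of 3 group means with 3 residual degrees of freedom. p-values are two-sided and adjusted by Benjamini and Hochberg over all regions tested, and 52 of 2478 and 1 of 111 members fell below the filter. The fit was tested on simulated data. Log2 differences on this scale understate those of low regions.

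Genes were assigned as the nearest protein-coding span of the RefSeq gene table within 100 kb, and regions no more than 1 kb from a span's end are called gene-end regions. The plan to use start sites was dropped because the gene table gives no strand and the promoter table covers only a part of the genes. A promoter window lay under a region when they shared at least 150 bp. Named regions were, in each direction, the 6 largest ratios with a gene, the 2 of highest mean in each nearness class of the library farther from the others, the 3 of lowest adjusted p each way for WT SP against WT DP, the 3 just inside and just outside the threshold, up to 3 per gene list, and the 2 with most members around them. Other members named at blood, vessel and heart genes, at Smad6 and Tbx3 and at promoters were chosen after their values were seen. Alternatives were other pseudocounts, filters, scalings, thresholds and tools, fits of other libraries, a replicate block and leaving out each library. OE SP entered no main fit because the rule had used it.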

Additional observations from a re-analysis of the deposited data

How the results depend on the processing

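The number of members followed the scaling and the thresholds, and the excess of members higher in replicate 2 (2478) over replicate 1 (111) held under each alternative run. The counts were 1303 and 327 with quantile normalization, 1081 and 501 with factors from the 10000 highest regions, 7655 and 822 at a log2 ratio of at least 1, 795 and 11 at 2, and 1278 and 36 at a mean of at least 60. The members higher in replicate 1 also moved to 284 with median-of-ratios factors, 205 with a pseudocount of 1, 65 with 10, and 180 at a mean of at least 20. A fit of all 8 libraries, whose error includes the OE SP spread, left fewer calls at members and over all regions. For WT SP against WT DP it gave 197 higher and 3 lower of the members higher in replicate 2 (7.95% and 0.121%). All regions had 6.20% and 8.12% in that fit, against 21.4% and 16.4% in the main fit. Of the members higher in replicate 1 it gave 0 and 8. For KO DP against WT DP it gave 6 and 11 of the members higher in replicate 2 (0.242% and 0.444%). All regions had 1.72% and 2.21% there, against 9.27% and 14.1% in the main fit. Of the members higher in replicate 1 it gave 0 and 2. The other counts that moved by over 1.5 times were, for members higher in replicate 2, 217 and 261 less open in WT SP with quantile normalization and with the 10000 highest regions (135 before), and 97 less open in KO DP with DESeq2 (226 before). For members higher in replicate 1, those more open in WT SP (7 before) were 0 with DESeq2, 4 at a mean of at least 30, 4 with median-of-ratios factors and 1 with the 10000 highest regions, those more open in KO DP (18 before) were 4 with DESeq2 and 11 at a mean of at least 30, and those less open (16 before) were 5 with DESeq2, and those below WT SP in both OE SP libraries (9 before) were 4 with median-of-ratios factors. The cause of these shifts was not tested. Over all regions, WT SP against WT DP gave 33968 higher and 26102 lower calls as deposited, 24614 and 30616 with median-of-ratios factors and 16444 and 35832 with the 10000 highest regions; edgeR on the recovered reads gave 26974 and 30907 and called 1598 members higher in replicate 2 as more open and 188 as less open, and DESeq2 called 1233 and 124. Without 1 library at a time, where the lone library of a group is assumed to vary like the others, the members higher in replicate 2 gave 1510 to 1542 more open and 90 to 109 less open in WT SP and 705 to 826 and 155 to 210 in KO DP. Those higher in replicate 1 gave 1 to 4 and 33 to 43, and 7 to 9 and 7 to 13. The Mipep region, with a difference of 0.20 between WT SP and WT DP, turned to -0.0277 with quantile normalization and -0.00662 with the 10000 highest regions. Of the calls on single regions and the class sizes, 2188 results stayed as they were, 203 lost their call, 50 gained one, 54 class sizes or counts moved and 2 turned. The replicate numbers did not pair the libraries, with correlations of replicate differences between groups of 0.0228 to 0.0341. With the number as a replicate block the members higher in replicate 2 gave 1750 more open and 145 less open in WT SP and 983 and 245 in KO DP, and those higher in replicate 1 gave 7 and 46, and 19 and 16. Depth limits the low side: the median member higher in replicate 1 had 15 reads in replicate 2, and the median member higher in replicate 2 had 31 in replicate 1.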
